A study of Mus musculus with 6 samples.

Results

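The Wnt ligands, the Frizzled receptors that bind them, the R-spondins and the receptors Lgr4, Lgr5 and Lgr6 were described in RNA sequencing of mammary epithelial cells from pubertal female mice. Members were found by a rule on gene symbols, and the family was picked with earlier results of these data known. The count matrix held 36 of them (19 Wnt ligands, 10 Frizzled receptors, 4 R-spondins and 3 Lgr receptors) among 61880 rows, which fall into 53912 loci. The study compared 3 pooled samples from transgenic *fat-1* mice with 3 pooled samples from wild-type (WT) mice. The transgene comes from the roundworm *Caenorhabditis elegans* and encodes an *n*-3 desaturase, which makes *n*-3 from *n*-6 polyunsaturated fatty acids (PUFA) throughout the body and not in the mammary gland alone. Both genotypes were females on an FVB/NJ background, were taken at 6 to 8 weeks of age, and had been kept for life on the parental diet, a modified AIN93G diet with 10% of its weight, and 22% of its energy, as fat from *n*-6-rich safflower oil. Epithelial cells were released from the inguinal glands by enzymes, and no sort is described. Each sample pooled the glands of 2 to 3 mice, and the oestrous stage of the mice was not determined. The transgene has no row in the matrix, so the genotype labels were not checked against its RNA.

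Wnt proteins are lipid-modified, secreted signals that bind a Frizzled receptor, and with the co-receptors Lrp5 or Lrp6 this protects beta-catenin from destruction so that it can act with TCF/LEF factors on target genes. Some ligands, of which Wnt5a and Wnt11 are the best known, signal mostly by routes that do not use beta-catenin. R-spondins bind Lgr receptors and keep the ligases Znrf3 and Rnf43 from removing Frizzled receptors from the cell surface, which makes cells more sensitive to Wnt. In the mammary gland, Wnt4 made by luminal cells carries part of the progesterone signal to basal cells, and Wnt and R-spondin signals are known to maintain basal stem cells and duct branching.

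Each sample held between 204539059 and 232148824 counts, so that 1 count was worth less than 0.005 CPM (counts scaled to a common library total). The samples differed in the marker genes of cell types, whose levels touch most results here. The 11 luminal markers summed to 920 to 4188 CPM in *fat-1* and 954 to 3188 CPM in WT samples, and none of them was at 0 in any sample. The 8 basal markers summed to 157 to 611 and 150 to 486 CPM. The 6 markers of fibroblasts, which unsorted isolates could hold, summed to 1551 to 6065 CPM in *fat-1* and 3332 to 5617 CPM in WT samples, and the 8 immune markers to 637 to 1361 and 626 to 1397 CPM. *fat-1* replicate 1 and WT replicate 1 had the highest luminal levels (means of log2(CPM + 1) of 7.35 and 7.37), *fat-1* replicate 2 and WT replicate 3 the lowest (5.50 and 5.62), so each genotype covered nearly the same range. In such bulk samples fewer cells of a type and less RNA per cell cannot be told apart.

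Levels of different genes were set side by side only as CPM per kb of annotated exon. *Fzd1*, at chr5:4753839-4758035 on the minus strand (GRCm38), had the highest mean level of the 36, at 9.87 ± 6.94 CPM per kb in *fat-1* and 14.5 ± 5.46 in WT samples (SD, n = 3 in each). *Wnt7b* at chr15:85535437-85582473 (minus strand) came next, at 9.88 ± 5.97 and 8.95 ± 4.86 CPM per kb. *Fzd7* at chr1:59482424-59486955 (plus strand) stood beside it at 9.28 ± 2.97 and 9.52 ± 4.04 CPM per kb. The order among these leading members was within their SDs. Behind them came *Lgr4* at 3.89, *Fzd5* at 3.75 and *Fzd6* at 3.65 CPM per kb as means of the 6 samples. These are also neighbours closer than their SDs. The *Lgr4* value adds a row without a symbol, and the row with its symbol alone had 2.60 CPM per kb, below *Fzd5* and *Fzd6*. Likewise *Wnt5b* and *Wnt11* had 1.41 and 1.01 CPM per kb in the row with their symbol, against 2.64 and 1.98 with all their rows. In all, 15 members reached 1 CPM per kb, namely *Wnt7b*, *Wnt5b*, *Wnt2*, *Wnt11*, *Wnt5a*, *Wnt9a*, *Rspo1*, *Lgr4* and the Frizzled genes 1, 4, 5, 6, 7, 8 and 10. At the other end, 11 members had under 0.1 CPM per kb, among them *Lgr5* at 0.087, *Wnt6* at 0.046, *Wnt3* at 0.037 and *Rspo2* at 0.009. These values depend on the length used, here all annotated exons of a gene together. Per kb of the longest transcript *Lgr5* had 0.185 CPM, and *Wnt7b* at 13.6 lay above *Fzd1* at 12.2 as means of the 6 samples.

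**Figure D1:**
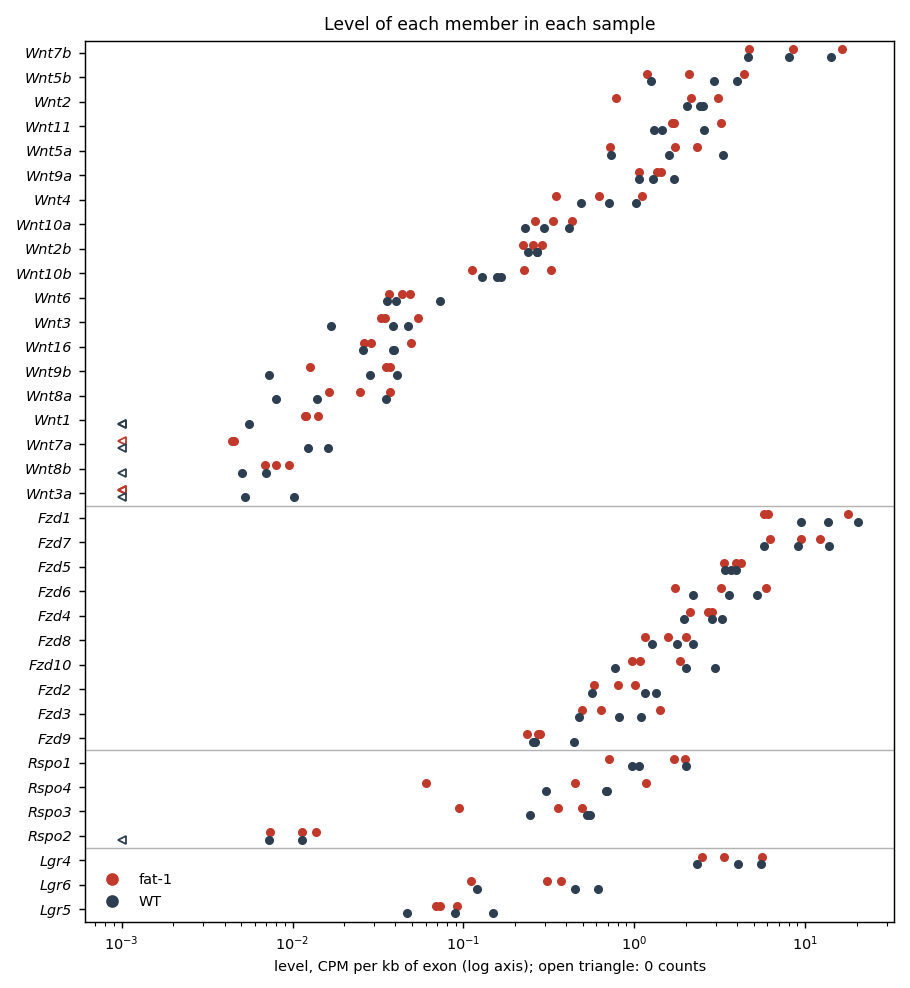
Level of each of the 36 members in each of the 6 samples, as CPM per kb of exon on a log axis, with *fat-1* samples in red and WT samples in dark blue, and open triangles for samples with 0 counts. *Fzd1*, *Wnt7b* and *Fzd7* stand above the others, and only *Wnt1* shows no overlap of red and blue. As means of the 6 samples, the Wnt ligands span from 9.41 CPM per kb for *Wnt7b* to 0.003 for *Wnt3a*.

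Several Wnt genes lie next to each other in the genome at very different levels. On chromosome 11, *Wnt9a* (chr11:59306928-59333552, plus strand) had 1.32 CPM per kb, while its neighbour *Wnt3a* (chr11:59248033-59290752, minus strand) was near 0. On chromosome 15, *Wnt10b* (chr15:98770712-98778150, minus strand) had 0.186 CPM per kb beside *Wnt1* (chr15:98789857-98793837, plus strand) at 0.007. On chromosome 1, *Wnt10a* (chr1:74791516-74804179, plus strand) had 0.328 CPM per kb beside *Wnt6* (chr1:74771892-74785322, plus strand) at 0.046. *Wnt3* and *Wnt9b*, neighbours on opposite strands of chromosome 11 (chr11:103774150-103817957 and chr11:103727364-103749821), were alike in being low, at 0.037 and 0.027 CPM per kb.

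The promoters of the members were searched for short motifs. RefSeq windows (GRCm38.p6) of 250 bases before the start were matched for 25 of the 36 members, in 28 windows, and the other members (*Fzd2*, *Fzd3*, *Fzd6*, *Fzd8*, *Lgr5*, *Rspo2*, *Rspo3*, *Wnt5a*, *Wnt7b*, *Wnt8a* and *Wnt10a*) had no entry. Some of these windows, placed by RefSeq starts, also hold exon bases of the annotation used for positions, counted for any gene on either strand. These were all 250 bases for *Fzd5* and *Fzd10*, 212 for *Wnt2b*, 183 for *Fzd9*, 146 for *Wnt4* and 140 for *Wnt2*. The windows of *Fzd4* and *Wnt7a* held 118 and 101 exon bases, and those of *Wnt3*, *Wnt9a* and *Wnt3a* 25, 2 and 1. The windows of *Fzd5*, *Fzd4* and *Wnt7a* reach only the edge of their own annotated gene, so most of their exon bases belong to other genes. A GC box (GGGCGG, searched on both strands) was in 20 of the 28 windows (71.4%), compared with 32.7% of all 32851 windows of the same length. The median number of CpG was 22.5 in the members' windows and 6 in all windows. The shares of windows were not tested. *Fzd1*, *Lgr4*, *Rspo1*, *Wnt8b*, *Wnt10b* and *Wnt16* had no GC box. A TCF/LEF sequence (CTTTG followed by A or T at each of the next positions 6 and 7, on both strands) was in 3 member windows (10.7%), those of *Fzd7*, *Wnt11* and *Wnt5b*, and in 14.8% of all windows. The letters TATAAA were in 2 member windows (7.14%), *Fzd1* and *Wnt11*, and in 12.4% of all. These are matches of letters and not tested sites. Shown here 5′ to 3′ on the gene's strand are the windows of *Fzd7*, the receptor with a high level and both a GC box and a TCF/LEF match (chr1:59481897-59482146, plus strand), of *Lgr6*, whose level followed the luminal markers (chr1:135105277-135105526, minus strand), and of *Rspo4*, whose level followed the fibroblast markers (chr2:151842677-151842926, plus strand). Capitals mark a GC box or a TCF/LEF match on either strand.
Fzd7: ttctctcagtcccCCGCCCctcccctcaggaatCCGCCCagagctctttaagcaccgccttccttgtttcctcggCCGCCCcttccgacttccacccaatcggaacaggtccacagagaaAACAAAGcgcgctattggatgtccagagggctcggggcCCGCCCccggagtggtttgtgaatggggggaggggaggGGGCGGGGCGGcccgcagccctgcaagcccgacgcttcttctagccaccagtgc
Lgr6: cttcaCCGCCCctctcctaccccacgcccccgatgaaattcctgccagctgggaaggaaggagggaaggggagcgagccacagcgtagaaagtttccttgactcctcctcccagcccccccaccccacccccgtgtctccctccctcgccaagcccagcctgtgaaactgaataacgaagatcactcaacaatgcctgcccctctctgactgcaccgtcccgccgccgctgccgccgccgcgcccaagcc
Rspo4: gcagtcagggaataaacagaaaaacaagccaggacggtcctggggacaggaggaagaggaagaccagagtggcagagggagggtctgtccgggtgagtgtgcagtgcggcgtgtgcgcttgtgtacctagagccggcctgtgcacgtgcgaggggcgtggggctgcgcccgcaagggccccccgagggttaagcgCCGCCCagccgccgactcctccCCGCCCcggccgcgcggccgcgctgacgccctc

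Among the Wnt ligands, 8 of 19 had a mean of at least 1 CPM. *Wnt7b*, a ligand of the ductal epithelium, had 80.4, 23.1 and 41.6 CPM in *fat-1* replicates 1, 2 and 3 and 69.6, 39.2 and 22.7 CPM in WT replicates 1, 2 and 3. The highest sample of each genotype was replicate 1, the range was 3.54-fold, and the genotypes overlapped throughout. *Wnt5a*, a ligand of the routes without beta-catenin that restrains duct growth, had 18.2, 5.63 and 13.6 CPM in *fat-1* and 26.0, 12.4 and 5.69 CPM in WT samples. Its paralog *Wnt5b* had 11.6, 3.16 and 5.57 CPM in *fat-1* and 10.6, 7.82 and 3.32 CPM in WT samples as the sum of its locus. *Wnt4*, the ligand downstream of progesterone, had 4.68, 1.45 and 2.60 CPM in *fat-1* and 4.31, 2.98 and 2.05 CPM in WT samples. All of these had their lowest values in *fat-1* replicate 2 or WT replicate 3, the samples lowest in luminal markers, and their highest in the replicates 1.

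*Wnt11*, known for its part in kidney branching, had 13.3, 6.84 and 7.02 CPM in *fat-1* and 10.5, 6.01 and 5.38 CPM in WT samples as the sum of its locus, with replicate 1 again the highest of both. Its row with the symbol alone had 5.91, 4.49 and 3.83 CPM in *fat-1* and 6.47, 1.08 and 3.36 CPM in WT samples. *Wnt9a* had a narrow range, with 4.74, 3.53 and 4.51 CPM in *fat-1* and 5.71, 4.27 and 3.56 CPM in WT samples. *Wnt2*, a ligand of stromal cells in many organs, ran differently, with 1.75, 4.83 and 6.93 CPM in *fat-1* and 4.59, 5.73 and 5.44 CPM in WT samples. Its lowest sample was *fat-1* replicate 1, a sample in which the ligands above were high and the fibroblast markers lowest. *Wnt2b* hardly moved, with 0.939, 1.07 and 1.21 CPM in *fat-1* and 1.00, 1.13 and 1.13 CPM in WT samples.

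The remaining Wnt ligands were low. *Wnt10b*, a ligand known to drive mammary growth when overexpressed, had 80, 239 and 160 counts in *fat-1* and 114, 99 and 116 counts in WT samples. *Wnt10a* had 175, 138 and 221 counts in *fat-1* and 220, 165 and 116 counts in WT samples. *Wnt16* had 24, 46 and 26 counts against 24, 38 and 35. These genes overlapped between the genotypes, as did *Wnt3* with 35, 23 and 21 against 11, 27 and 30 counts, *Wnt6* with 17, 23 and 20 against 34, 20 and 16 counts, and *Wnt9b* with 12, 34 and 35 against 7, 29 and 38 counts. Of the 5 ligands that did not pass the filter on low counts, *Wnt8a* had 6, 14 and 9 against 3, 14 and 5 counts and *Wnt7a* 0, 3 and 3 against 11, 0 and 8 counts. *Wnt8b* reached 7 counts at most. *Wnt3a* had 0 counts in every *fat-1* sample and at most 6 in a WT sample, where a count of 0 still allows up to 3 counts. *Wnt1*, the founding member of the family, had 6, 6 and 7 counts in *fat-1* and 0, 3 and 0 counts in WT samples. It was the only member whose genotypes did not overlap, as those of 4.15% of the tested loci did not, and its WT counts were at or under the floor of 3 counts. When all loci with any count were fitted, *Wnt1* had an unadjusted p of 0.0419 and an adjusted p of 1.00 by edgeR's quasi-likelihood test, where 1.58% of all loci had an unadjusted p of at most 0.05.

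All 10 Frizzled receptors were detected in each sample. *Fzd1* had 24.0, 25.3 and 75.0 CPM in *fat-1* and 57.4, 85.1 and 39.6 CPM in WT samples, so that *fat-1* replicate 3 lay among the WT samples and the other two below them. *Fzd7*, a receptor of basal and stem-like mammary cells, had 55.1, 28.2 and 42.8 CPM in *fat-1* and 62.5, 40.9 and 26.0 CPM in WT samples. *Fzd6* had 28.6, 8.36 and 15.4 CPM in *fat-1* and 25.2, 17.3 and 10.6 CPM in WT samples. Like *Wnt7b*, both receptors were highest in the replicates 1 of the genotypes, and the genotypes overlapped. *Fzd5* was the steadiest receptor, with 29.2, 23.1 and 27.2 CPM in *fat-1* and 25.5, 27.3 and 23.5 CPM in WT samples, a range of 1.27-fold. *Fzd4*, the receptor that also binds norrin in vessels, had 19.2, 14.3 and 18.1 CPM in *fat-1* and 22.0, 19.1 and 13.2 CPM in WT samples. *Fzd3* had 18.1, 6.35 and 8.14 CPM in *fat-1* and 14.0, 10.4 and 6.08 CPM in WT samples. *Fzd3* and *Fzd6* act in planar cell polarity. *Fzd8* had 12.0, 6.91 and 9.35 CPM in *fat-1* and 13.1, 10.7 and 7.56 CPM in WT samples. *Fzd10* had 3.51, 3.14 and 5.99 CPM in *fat-1* and 9.69, 6.56 and 2.50 CPM in WT samples. *Fzd2* had 2.95, 2.12 and 3.71 CPM against 4.94, 4.24 and 2.06 CPM. For *Fzd10* and *Fzd2* WT replicate 3 was the lowest sample of all and WT replicates 1 and 2 the highest. *Fzd9* had 112 to 135 counts in *fat-1* and 125, 136 and 208 counts in WT samples.

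Among the R-spondins *Rspo4* had the widest range of all members of at least 1 CPM. It had 0.142, 1.07 and 2.76 CPM in *fat-1* and 0.720, 1.64 and 1.63 CPM in WT samples, a range of 19.4-fold that lay wholly within the *fat-1* group. *Rspo3*, a potent enhancer of Wnt signals that endothelial and stromal cells are known to make, had 0.289, 1.53 and 1.11 CPM in *fat-1* and 0.762, 1.69 and 1.64 CPM in WT samples. Both were lowest in *fat-1* replicate 1 and next lowest in WT replicate 1. *Rspo1*, which supports mammary stem cells, had 3.30, 1.37 and 3.82 CPM in *fat-1* and 3.87, 2.07 and 1.89 CPM in WT samples, highest in WT replicate 1 and lowest in *fat-1* replicate 2. *Rspo2* had only 8, 15 and 12 counts in *fat-1* and 8, 0 and 12 counts in WT samples.

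Among their receptors, *Lgr4* (chr2:109917647-110014257, plus strand) had by far the most RNA. Its locus in the assembly also holds the neighbouring gene *Lin7c* (chr2:109890853-109901003, plus strand), which took 73.1% to 85.8% of the locus counts. The row with the symbol *Lgr4* had 20.03, 5.59 and 13.8 CPM in *fat-1* and 27.6, 15.4 and 9.34 CPM in WT samples, with the lowest value in *fat-1* replicate 2 and the highest in WT replicate 1. *Lgr6*, a receptor found on subsets of luminal and basal progenitors, had 2.56, 0.755 and 2.12 CPM in *fat-1* and 4.23, 3.10 and 0.817 CPM in WT samples, with the same lowest and highest samples. *Lgr5*, a stem cell receptor, was low, with 158, 153 and 195 counts in *fat-1* and 328, 208 and 98 counts in WT samples.

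Whether *fat-1* and WT samples differed was tested with edgeR's quasi-likelihood test on all 24061 loci that passed the filter on low counts, with Benjamini-Hochberg adjustment over them. Of the 36 members 31 passed this filter, and no difference between the genotypes was detected in any of these, at an adjusted p of at most 0.05 (0 members, smallest 1.00) or an unadjusted p of at most 0.05 (0 members). The background share of all loci at such an unadjusted p was 1.14% (0.478% higher and 0.661% lower in *fat-1*). At an adjusted p of at most 0.05, 0 of all 24061 loci passed, so that count does not set the members apart. DESeq2 and edgeR's exact test also called 0 members at either level. The fitted value was higher in *fat-1* for 11 members and lower for 20, with a median log2 fold change of -0.04, compared with 0.00 over all loci. The genotypes overlapped in each of the 31. When the rows with a symbol were fitted in place of locus sums, again 0 members passed. The background was 2.21% of rows at an unadjusted p of at most 0.05 and 0 of 30683 rows at such an adjusted p. These p-values measure only the spread between these pooled samples.

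Among the members of at least 1 CPM, the largest fitted differences of each role did not pass the test (edgeR's quasi-likelihood test, adjusted p = 1.00 for each). For the Wnt ligands these were *Wnt11*, at 7.31 ± 2.81 CPM in WT and 9.05 ± 3.67 in *fat-1* (log2 fold change 0.31, SE 0.37), and *Wnt5a*, at 14.7 ± 10.3 and 12.5 ± 6.36 CPM (-0.24, SE 0.63). The row with the symbol *Wnt11* alone had 0.38 (SE 0.61). For the Frizzled receptors they were *Fzd10* (-0.57, SE 0.50) and *Fzd1* (-0.55, SE 0.51). *Fzd10* had 6.25 ± 3.60 CPM in WT and 4.22 ± 1.55 in *fat-1* samples, and *Fzd1* 60.7 ± 22.9 and 41.4 ± 29.1 CPM. For the R-spondins *Rspo3* (-0.48, SE 0.59) and *Rspo1* (0.12, SE 0.45) were named by the same rule. *Lgr6* had a log2 fold change of -0.59 (SE 0.66), and the *Lgr4* locus one of -0.01 (SE 0.16). Without the *Lin7c* row, but with a row that has no symbol, the *Lgr4* value was -0.06 (SE 0.40). The row with the symbol *Lgr4* alone had -0.41 (SE 0.57). *Wnt10b* (0.56, SE 0.40, unadjusted p = 0.204) had the smallest p of all members and was named after its values were seen. Leaving out 1 sample brought a member to an unadjusted p of at most 0.05 in 3 cases, *Wnt10b* without *fat-1* replicate 1 (0.90), *Fzd1* without *fat-1* replicate 3 (-1.30) and *Fzd10* without WT replicate 3 (-0.94), none with an adjusted p of at most 0.05. The share of all loci at such an unadjusted p in these smaller fits is not given here, so these cases do not set the members apart.

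The samples limited what could be seen. All 31 of the 95% intervals held 0, and their bounds lay a median of 1.05 on the log2 scale from the estimate (from 0.306 for *Fzd5* to 2.09 for *Rspo4*). For *Wnt7b* the interval ran from -1.19 to 1.48, which leaves room for a level in *fat-1* of 0.437 to 2.78 times that in WT. For *Fzd5* it ran from -0.25 to 0.37, or 0.844 to 1.29 times. With the mean level of the luminal and basal markers as a further term in the fit, the standard error became smaller for 29 of the 31 members, and its median went from 0.435 to 0.242. The share of all loci with a smaller standard error is not given here, so this does not set the members apart. The difference of *Wnt7b* was then 0.15 (SE 0.0806) and that of *Fzd7* 0.03 (SE 0.0879). Still 0 members reached an unadjusted p of 0.05, the smallest being 0.1002 for *Wnt11*.

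**Figure D2:**
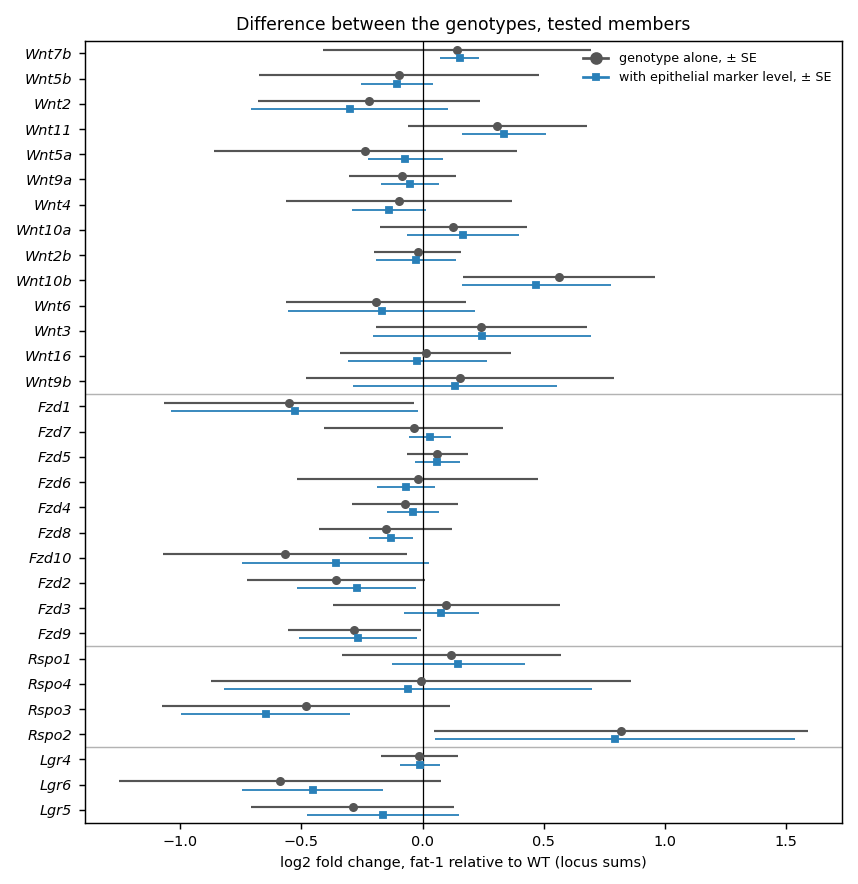
Log2 fold change of *fat-1* relative to WT samples for the 31 tested members as locus sums, ± SE, from the fit with genotype alone (grey circles) and with the epithelial marker level as a further term (blue squares). The values scatter around 0 from -0.59 for *Lgr6* to 0.82 for *Rspo2*, and the blue bars of *Wnt7b*, *Fzd7*, *Fzd6* and *Wnt5b* are shorter than the grey ones.

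The larger differences among samples lay within the genotypes, and for many members they followed the cell type markers. Across the 6 samples 12 of 31 members were higher with the luminal marker level at an unadjusted permutation p of at most 0.05, against a background of 15.8% of all loci. These were the ligands *Wnt4*, *Wnt5a*, *Wnt5b*, *Wnt7b* and *Wnt9a*, the receptors *Fzd3*, *Fzd4*, *Fzd6*, *Fzd7* and *Fzd8*, and *Lgr4* and *Lgr6*, with Pearson's r from 0.923 to 0.992. The median r was 0.77 over the members and 0.01 over all loci. Another 2, *Wnt16* and *Wnt9b*, were lower with it, against a background of 12.4%. No relation passed adjustment over the 144366 relations of all loci with 6 marker lists (0 of the 186 relations of members, smallest adjusted p = 0.174 for r and 0.240 for Spearman's rho, both by exact permutation). Of the 186, 53 had an unadjusted permutation p of at most 0.05 by r and 39 by rho. By r the share of all loci ran from 1.94% (lower with the adipocyte level) to 15.8% (higher with the luminal level) for a list and direction. The share by rho is not given here, so these totals do not set the members apart. The design could not reach less than 0.00139 for r or 0.00278 for rho.

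*Fzd8* gave the closest order of samples, with r = 0.988 (p = 0.00139 by exact permutation, 0.174 adjusted) and rho = 1.00 (p = 0.00278 by exact permutation, 0.240 adjusted), and r stayed at 0.952 without the 2 samples farthest from the median luminal level. *Wnt5b* had r = 0.992 and *Fzd6* r = 0.990 (exact permutation p = 0.00278 and adjusted p = 0.174 for each, rho = 0.943 with p = 0.0167 and adjusted p = 0.273 for each). Without the 2 farthest samples *Wnt5b* kept r = 0.967 and *Fzd6* r = 0.982. *Wnt7b* had r = 0.983 (p = 0.0194 by exact permutation, 0.190 adjusted), rho = 0.829 (p = 0.0583 by exact permutation, 0.344 adjusted) and r = 0.950 without the 2 farthest samples. *Lgr6* had r = 0.923 (p = 0.0236 by exact permutation, 0.195 adjusted) and rho = 0.943 (p = 0.0167 by exact permutation, 0.273 adjusted), but only r = 0.587 without the 2 farthest samples, so its relation rested in part on those. For *Lgr4* the row with its own symbol had r = 0.956 and rho = 1.00 (p = 0.00139 and 0.00278 by exact permutation, 0.174 and 0.240 adjusted).

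The luminal level cannot be told apart from other marker levels in these samples. The basal level went with it at r = 0.982 and the immune level against it at r = -0.992. Of the members, 14 were higher with the basal level (background 14.7%) and 12 lower with the immune level (background 14.6%), and 12 of the latter were among the 12 that were higher with the luminal level. *Fzd7* was closer to the basal level, with r = 0.995 and rho = 1.00 (p = 0.00139 and 0.00278 by exact permutation, 0.174 and 0.240 adjusted), than to the luminal level (r = 0.978), a difference between relations that was not tested. *Wnt9b*, which was lower with luminal markers, was the 1 member higher with the immune level (background 12.4%). What part the cell makeup had in these relations was not tested.

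**Figure D3:**
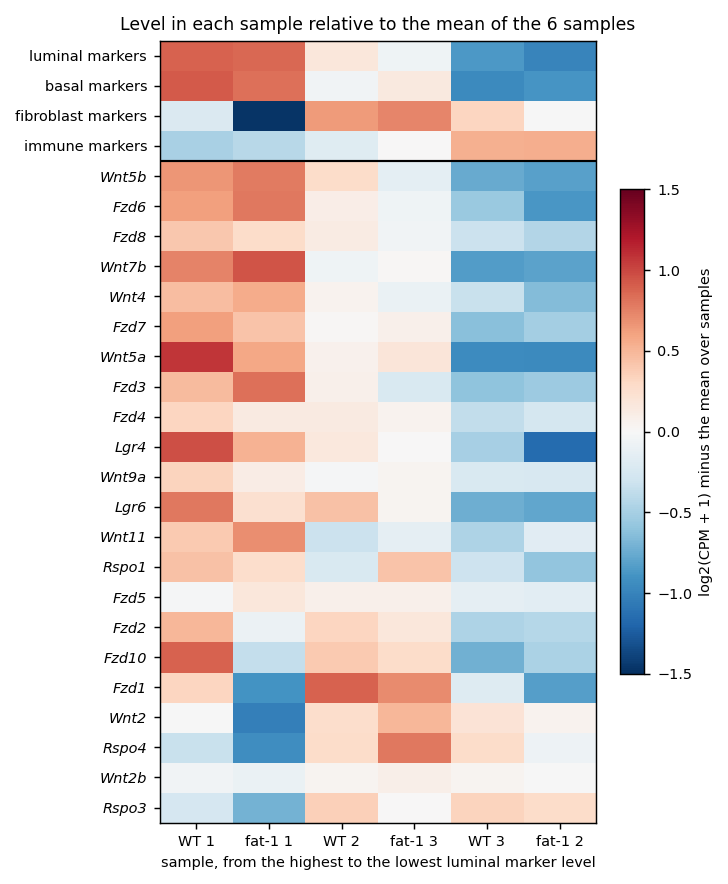
Levels as log2(CPM + 1) minus the mean of the 6 samples, for 4 marker lists (top) and the 22 members of at least 1 CPM (below, ordered by their correlation with the luminal level, *Lgr4* drawn from its own row), with samples ordered by luminal level and colour from blue (lower) to red (higher). The upper member rows turn from red in WT 1 and *fat-1* 1 to blue in WT 3 and *fat-1* 2 as the luminal and basal markers do, and *Wnt2*, *Rspo4* and *Rspo3* at the bottom are bluest in *fat-1* 1, as the fibroblast markers are.

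With the fibroblast markers 4 members (12.9% of those tested) were higher, a share near the background of 8.78% of all loci, so their values are given as a description of these genes. *Wnt2* had r = 0.981 (p = 0.00139 by exact permutation, 0.174 adjusted), rho = 1.00 (p = 0.00278 by exact permutation, 0.240 adjusted) and r = 0.988 without the 2 samples farthest from the median. *Rspo4* had r = 0.955 and rho = 1.00 with the same p-values, and r = 0.932 without those samples. *Wnt2b* had r = 0.932 (p = 0.00278 by exact permutation, 0.174 adjusted) and rho = 0.943 (p = 0.0167 by exact permutation, 0.273 adjusted), with r = 0.908 without those samples, within a range of only 0.939 to 1.21 CPM. *Rspo3* had r = 0.846 (p = 0.0347 by exact permutation, 0.224 adjusted) and rho = 0.657 (p = 0.175 by exact permutation, 0.537 adjusted). It was closer to the endothelial level, at r = 0.987 and rho = 1.00 (p = 0.00139 and 0.00278 by exact permutation, 0.174 and 0.240 adjusted), a difference between relations that was not tested. The fibroblast and endothelial levels themselves went together at r = 0.859, so they cannot be well told apart here. With the endothelial level *Wnt2*, *Wnt2b* and *Rspo4* had r = 0.797, 0.785 and 0.763. *Wnt11* was lower with the fibroblast level (background 5.58%), at r = -0.864 (p = 0.0264 by exact permutation, 0.203 adjusted) and rho = -0.600 (p = 0.242 by exact permutation, 0.604 adjusted). It was also lower with the endothelial level (background 9.26%), at r = -0.975 (p = 0.00417 by exact permutation, 0.174 adjusted) and rho = -0.943 (p = 0.0167 by exact permutation, 0.273 adjusted). These values are for the locus sum. The row with the symbol *Wnt11* alone had r = -0.644 with the fibroblast level (p = 0.193 by exact permutation). With the endothelial level that row had r = -0.792 (p = 0.0569 by exact permutation) and rho = -0.886 (p = 0.0333 by exact permutation, 0.284 adjusted). No member followed the adipocyte level at an unadjusted p of at most 0.05 (background 2.80% higher and 1.94% lower). The fibroblast and luminal levels were themselves only loosely opposed (r = -0.511).

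**Figure D4:**
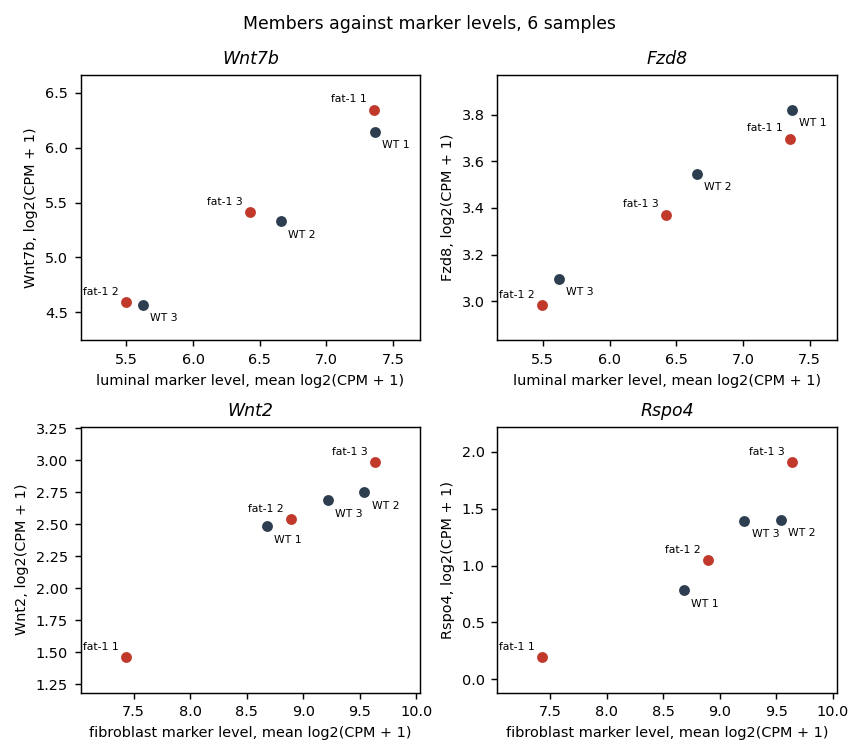
Level of *Wnt7b* and *Fzd8* against the luminal marker level and of *Wnt2* and *Rspo4* against the fibroblast marker level in the 6 samples, each axis as log2(CPM + 1), with *fat-1* samples in red and WT samples in dark blue. Red and blue points lie along the same line in each panel, and *fat-1* 1 stands apart at the low end for *Wnt2* and *Rspo4*.

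The assembly divided the counts of 3 members over several rows, and these rows did not run in parallel. *Wnt5b* (chr6:119432531-119544347, minus strand) had 20.5%, 73.9% and 92.8% of its locus counts in the row with its symbol in *fat-1* and 61.7%, 47.9% and 69.3% in WT samples. The mean shares, 62.4% ± 37.5 and 59.6% ± 10.8 (SD, n = 3), did not differ beyond their spread (exact permutation p = 0.9, two-sided). For *Wnt11* (chr7:98835112-98855195, plus strand) the shares were 54.8% ± 10.6 and 47.3% ± 25.5 (exact permutation p = 0.8), and for *Lgr4* 11.9% ± 5.07 and 15.8% ± 6.59 (exact permutation p = 0.5, n = 3 in each). With 3 samples against 3 the test cannot go below 0.1. The row of *Wnt5b* alone followed the luminal level at r = 0.526 (exact permutation p = 0.286) and that of *Wnt11* at r = 0.275 (exact permutation p = 0.643), compared with 0.992 and 0.806 for their loci, so the relation of *Wnt5b* held for the locus and not for its row.

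The other genes of the pathway were looked at as lists. Of 60 genes, 58 had a row and 54 passed the filter, of which 22 were higher and 32 lower in *fat-1* and 0 had an unadjusted p of at most 0.05 (background 1.14%). Their median log2 fold change was -0.02. Among the co-receptors *Lrp5* (log2 fold change -0.02, SE 0.37) and *Lrp6* (0.00, SE 0.19) had values near 0, and of the Ror receptors, which serve Wnt5a, *Ror1* (-0.42, SE 0.51) and *Ror2* (-0.15, SE 0.45) had the smallest p of that list. *Ror2*, with 12.1, 30.0 and 39.3 CPM in *fat-1* and 20.1, 38.8 and 31.2 CPM in WT samples, was lowest in the same sample as *Wnt2*. *Wls* and *Porcn*, without which Wnt proteins are not secreted, had values of -0.18 (SE 0.19) and -0.05 (SE 0.55). The secreted inhibitors *Dkk2* (-0.61, SE 0.39) and *Dkk3* (-0.62, SE 0.47) had the smallest p of the inhibitors, with 0.171 for *Dkk2* the smallest of all pathway genes.

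For the turnover of receptors, *Rnf43* had 14.2, 4.57 and 6.85 CPM in *fat-1* and 11.6, 5.99 and 4.63 CPM in WT samples (log2 fold change 0.20, SE 0.51). *Znrf3* shares its locus with *Kremen1*, and that locus had a value of -0.04 (SE 0.088). Inside the cell *Pygo1* (-0.34, SE 0.34) and *Axin1* (0.07, SE 0.080) had the smallest p of their list. Among the TCF factors *Tcf7l1* had -0.13 (SE 0.22) and *Tcf7* 0.13 (SE 0.35). *Lef1*, both a TCF factor and a target, had 9.73, 19.4 and 9.74 CPM in *fat-1* and 8.54, 10.4 and 18.8 CPM in WT samples (log2 fold change 0.04, SE 0.40). It was highest in *fat-1* replicate 2 and WT replicate 3, the samples with the lowest luminal and highest immune levels, and thus ran against *Wnt7b* and *Wnt4*. *Axin2*, the target most often used to read beta-catenin signalling, had 5.864, 8.776 and 6.496 CPM in *fat-1* and 5.88, 5.97 and 7.27 CPM in WT samples, or 7.05 ± 1.53 and 6.38 ± 0.777 CPM (0.14, SE 0.19). Its highest samples of each genotype were also *fat-1* replicate 2 and WT replicate 3. Of the other targets *Zfp703* (-0.14, SE 0.13) and *Procr* (-0.17, SE 0.17), a marker of some mammary stem cells, had the smallest p.

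Some members overlap genes on the opposite strand, and as the sources used here do not say whether strand was used in counting, reads there cannot be told apart. The overlap took 17.8% of the exon bases of *Fzd5* (with *Gm38058*), 13.1% of *Rspo3*, 8.80% of *Wnt11*, 6.61% of *Wnt7b* (with *AU022754*), 4.58% of *Wnt5a* and 3.15% of *Fzd6*. The row of *AU022754* had 47 to 199 counts and that of *Gm38058* 12 to 25 counts per sample, compared with 4663 or more for *Wnt7b* and 4835 or more for *Fzd5*.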

How the data were processed

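RNA of pooled mammary epithelial cells (3 *fat-1* and 3 WT samples) was sequenced in pairs, aligned by the authors to GRCm38 with HISAT2 and assembled and quantified with StringTie. The deposited matrix holds raw counts per assembled gene. Versions, annotation, strand and settings were not given in the sources used here. All 6 columns were matched to samples by name. The members and the lists of pathway and marker genes were chosen with earlier results of these data known. Rows with the same locus number were added, since the assembly divides genes over rows. For the level per length, and for *Lgr4* throughout where stated, rows of another symbol were left out. Counts were filtered with filterByExpr, scaled with TMM factors and tested with edgeR 4.0.16 (quasi-likelihood, genotype alone, threshold 0.05) in R 4.3.3. CPM values carry the TMM factors. Exon lengths, positions and overlaps were taken from the GENCODE annotation given with GRCm38, and promoter windows from RefSeq. Marker levels are means of log2(CPM + 1) over a list, and correlations were adjusted over all loci and lists, not over the members alone as first planned. Every member was described, with values per sample for those of at least 1 CPM, counts for those reaching 10 counts, and fold changes for the 2 largest of each role. From each pathway list the 2 smallest p were named, with *Axin2*, *Lef1*, *Lrp5*, *Lrp6*, *Znrf3*, *Rnf43*, *Wls* and *Porcn*. On simulated data with the spread of all tested loci (23421 genes), 73 of 97 loci changed 2-fold and 96 of 97 changed 4-fold were called at an unadjusted p. After adjustment 10 and 56 were called, with 4 unchanged loci. The changed loci were drawn from all tested loci, so these shares are not those of the members. DESeq2 1.42.0, other scalings, filters, samples left out, a replicate block and the marker term were alternatives. Limits from counts cover counting error only.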

Additional observations from a re-analysis of the deposited data

How the results depend on the processing

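With each sample left out in turn, the count of members at an unadjusted p of at most 0.05 ranged from 0 to 1 in the fit of locus sums and in that of rows, and no member had an adjusted p of at most 0.05. The members higher with the luminal level numbered 11 to 15, those lower with it 0 to 3, and those higher with the fibroblast level 3 to 4. The backgrounds given above are for all 6 samples, and those for the sets with a sample left out are not given here. The difference in the share of counts in the row with the symbol ranged from -7.18 to 15.1 percentage points for *Wnt11*, from -12.5 to 23.7 for *Wnt5b* and from -6.93 to -0.385 for *Lgr4*. The log2 fold changes that changed sign when a sample was left out ranged from -0.47 to 0.40 for *Fzd3*, -0.25 to 0.092 for *Fzd4*, -0.0064 to 0.15 for *Fzd5*, -0.57 to 0.32 for *Fzd6*, -0.29 to 0.33 for *Fzd7*, -0.35 to 0.047 for *Fzd8*, -0.42 to 0.034 for *Fzd9*, -0.17 to 0.085 for *Lgr4*, -0.60 to 0.20 for *Lgr5*, -0.16 to 0.52 for *Rspo1*, -1.13 to 0.53 for *Rspo4*, -0.073 to 0.38 for *Wnt10a*, -0.065 to 0.67 for *Wnt11*, -0.33 to 0.19 for *Wnt16*, -0.67 to 0.17 for *Wnt2*, -0.12 to 0.075 for *Wnt2b*, -0.082 to 0.55 for *Wnt3*, -0.61 to 0.22 for *Wnt4*, -0.62 to 0.46 for *Wnt5a*, -0.72 to 0.28 for *Wnt5b*, -0.36 to 0.19 for *Wnt6*, -0.43 to 0.64 for *Wnt7b*, -0.22 to 0.12 for *Wnt9a* and -0.28 to 0.66 for *Wnt9b* as locus sums, and from -0.85 to 0.084 for *Lgr4*, -0.050 to 1.10 for *Wnt11* and -0.83 to 0.12 for *Wnt5b* as rows. Without a filter on low counts 1 member, *Wnt1*, had an unadjusted p of at most 0.05 in each fit, from the counts given above. With the epithelial marker level in the fit, *Fzd7* went to 0.030 and *Wnt16* to -0.023. Under DESeq2, the exact test, the older quasi-likelihood fit, DESeq2 size factors, no TMM factors and the sums without rows of another symbol, 0 members passed at an unadjusted p of at most 0.05.

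The deviations of same-numbered samples from their group means correlated at 0.515, -0.0961 and 0.0740, in the order of the replicate numbers. With so few samples these values cannot decide whether the replicate numbers pair the samples. The sources used here do not say whether they do. With the replicate number as a block 0 members had an unadjusted or adjusted p of at most 0.05.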

Other observations

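Rows named for antisense genes of members were also in the matrix. *Fzd10os* had 674, 442 and 853 counts in *fat-1* and 1133, 848 and 371 counts in WT samples, in the same order of samples within WT as *Fzd10* with 2073, 1485 and 514 counts. *Rspo4os* had at most 10 counts in a sample, while *Rspo4* had 30 to 574. The part of the *Wnt5b* locus that carries no symbol had 9.25, 0.827 and 0.403 CPM in *fat-1* and 4.04, 4.08 and 1.02 CPM in WT samples.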
